A study of Mus musculus with 4 samples.

Results

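The Hox cluster genes are the 39 protein-coding genes named Hoxa, Hoxb, Hoxc or Hoxd plus a number in the RefSeq gene table for GRCm38.p6, the assembly that mm10 stands for. They are 39 of the 21631 protein-coding genes on the autosomes and X in that table. Members were chosen by symbol and chromosome alone: 11 Hoxa genes on chromosome 6, 10 Hoxb genes on chromosome 11, 9 Hoxc genes on chromosome 15 and 9 Hoxd genes on chromosome 2. The study mapped open chromatin in endothelial cells sorted from the retina of C57BL/6 mice labelled P16. It used ATAC-seq, in which a transposase tags accessible DNA for sequencing. The genotype of 2 libraries is labelled Zeb1 knockdown (CKO in their titles) and that of the other 2 control, and each was made from 2000 cells. Zeb1 encodes a zinc-finger protein that mostly represses transcription. The labels name neither the promoter that drives the deletion nor the animals behind a library, so p-values measure only the spread between these libraries, which may be technical. Each library has its own list of broad peaks, and a gene counts as holding a peak when a listed peak overlaps its body or the 1 kb on either side by at least 1 bp.

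Hox genes encode homeodomain transcription factors that give cells their position along the head-to-tail axis of the embryo. Their order on the chromosome follows the order in which they are used, from group 1 in the hindbrain to group 13 at the tail and limb ends, and Polycomb complexes keep the clusters silent where they are not used. Neural tissue in front of the hindbrain, the retina among it, develops without Hox expression, while several Hox genes have described roles in endothelial cells of other vessels.

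No Hox gene held a peak in any of the 4 libraries. The count of members with a peak was 0 of 39 in Zeb1 knockdown replicates 1 and 2, and 0 of 39 in control replicates 1 and 2. Over all protein-coding genes, 46.9% and 54.2% held a peak in the knockdown libraries, and 28.2% and 46.1% in the control libraries. In all, 58.4% of these genes held a peak in at least 1 library and 25.3% in all 4. The pattern of a peak in both knockdown libraries and in neither control library was shown by 0 Hox genes, against 4.31% of all protein-coding genes. The opposite pattern was shown by 0 Hox genes, against 0.139% of all protein-coding genes. With no peak in any library, the difference between the groups was 0 genes (two-sided exact permutation test, p = 1). With 2 libraries against 2, that test cannot go below 0.33.

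The members without a peak include every group in which the Hox genes are usually sorted. Among the anterior members were Hoxa2 and Hoxb1, which pattern the hindbrain, and among the posterior ones Hoxa13 and Hoxd13, which shape the digits and the urogenital tract. Also without a peak were the members with described roles in endothelium: Hoxd3 and Hoxb3, known to promote an angiogenic state, Hoxa5 and Hoxd10, known to oppose it, Hoxa9, known from endothelial migration and vessel growth, and Hoxb5, an activator of the Vegf receptor gene Kdr. The windows searched ran from 3.78 kb at Hoxc12 to 46.0 kb at Hoxa3.

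The ground between the Hox genes was empty as well. The 4 clusters, from the lowest to the highest end of their genes, span 106 kb for Hoxa (chromosome 6, 52155367 to 52260880), 174 kb for Hoxb (chromosome 11, 96194316 to 96368254), 116 kb for Hoxc (chromosome 15, 102921131 to 103036856) and 96.9 kb for Hoxd (chromosome 2, 74668225 to 74765142). Of these 492 kb, 0 bp lay under a peak in either knockdown library or in either control library, so 0 merged regions fell in a cluster. Across the genome, 10.1% of the 25263 merged regions were found in both knockdown libraries and in no control library, and 0.158% showed the opposite. At the mean density of its own list over the chromosomes, a library would place 2.62 and 3.82 peaks in 492 kb for knockdown replicates 1 and 2, and 1.46 and 2.63 for control replicates 1 and 2. By length alone, few peaks fall in a stretch of this size. The same stretch holds 39 coding genes.

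No numbered peak is missing from the lists at the clusters. Filtering of reads or regions before the peaks were numbered was not tested. The authors' peak names carry running numbers, of which 77 and 64 are missing from the knockdown lists and 79 and 70 from the control lists. In each of the 16 pairs of cluster and library, the last peak before the cluster and the next one after it carry consecutive numbers.

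**Figure D1:**
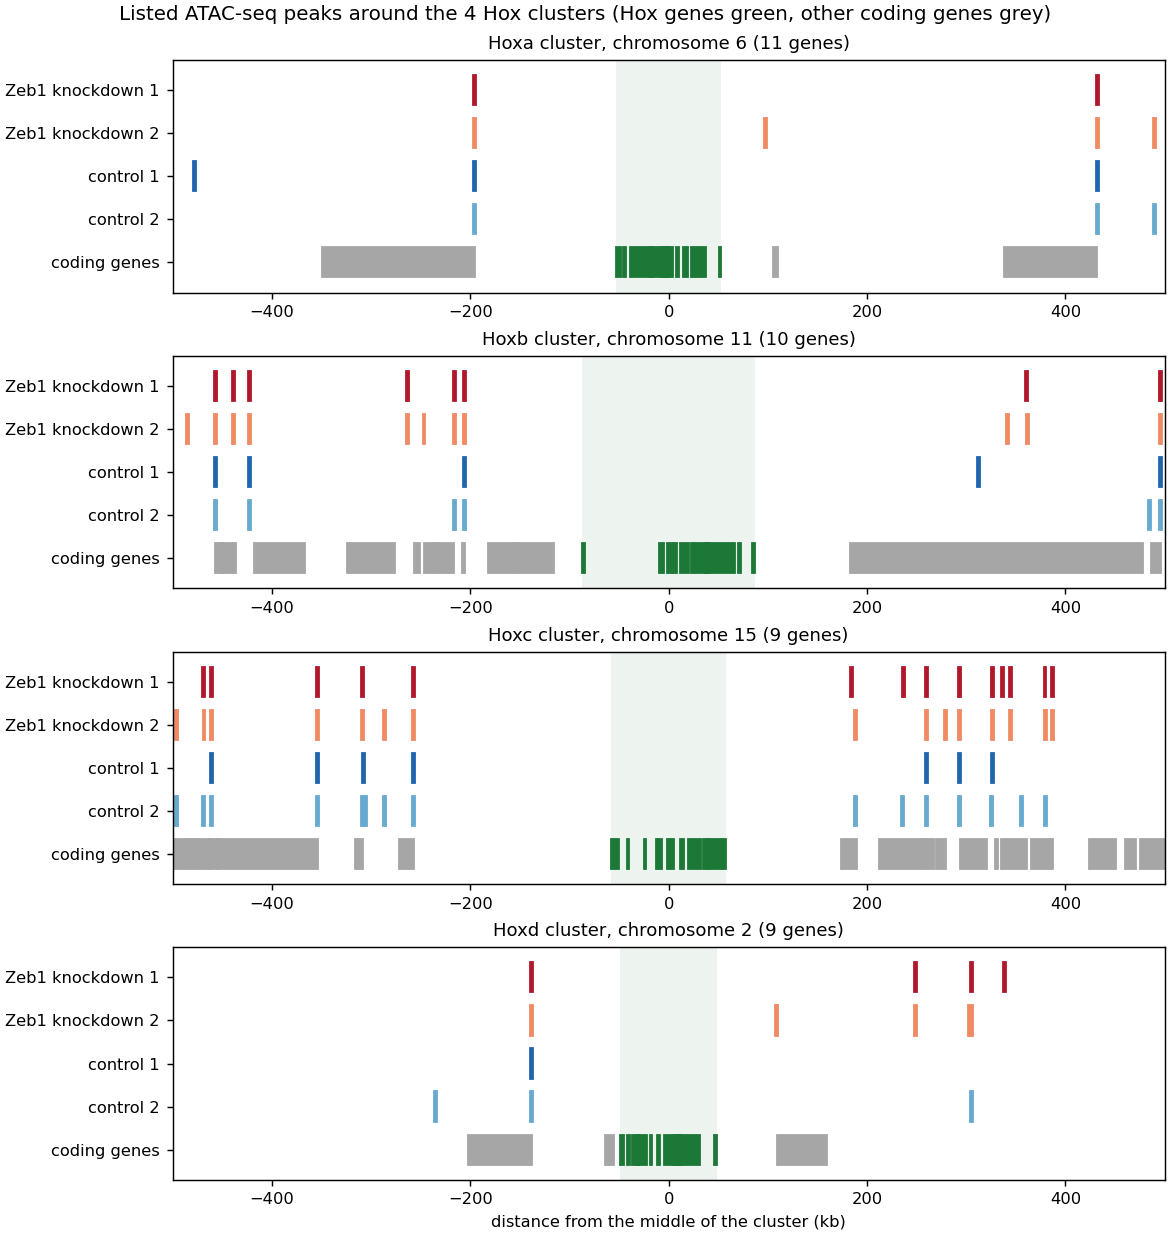
Listed peaks of the 4 libraries (upper rows, drawn at least 3 kb wide) and protein-coding genes (lowest row, Hox genes green, others grey) around each cluster; the x axis is distance in kb and the shaded band is the cluster from outermost gene to outermost gene. The shaded bands hold no peak in any library, while peaks on at least 1 side of each band stand at the same place in all 4 libraries.

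Several microRNA genes lie inside the same intervals, and they show how the clusters duplicated together. Mir10a sits in the Hoxb cluster and Mir10b in the Hoxd cluster, Mir196a-1 in Hoxb, Mir196a-2 in Hoxc and Mir196b in Hoxa. Their mature forms (RefSeq, GRCm38.p6) fall into 2 families with a shared seed each, and the seed, bases 2 to 8, is in capitals.
mmu-miR-10a-5p: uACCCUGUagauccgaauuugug
mmu-miR-10b-5p: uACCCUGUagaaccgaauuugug
mmu-miR-196a-5p: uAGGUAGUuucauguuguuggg
mmu-miR-196b-5p: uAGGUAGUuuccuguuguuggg
These 5 genes, Mir615 in the Hoxc cluster and the long noncoding genes Hotair, Hottip, Hotairm1, Hoxa11os, Hoxb5os and Haglr make a list of 12 noncoding genes of the clusters. None of the 12 held a peak in either knockdown library or in either control library.

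Around each cluster the peak-free interval ran well past the Hox genes, and its low-coordinate edge was the same in all 4 libraries. At Hoxa the last peak on the low side covered the end of Skap2, an adaptor gene of leukocyte signalling, 142 kb from the cluster in knockdown replicates 1 and 2 and 143 and 142 kb in control replicates 1 and 2. At Hoxb it lay at Atp5g1, a subunit gene of mitochondrial ATP synthase, 118 kb away in each of the 4 libraries. This peak was among the strongest of each list, within the top 1.44% and 1.55% of peaks by −log10 p in the knockdown libraries and the top 7.62% and 4.14% in the control libraries. At Hoxc the edge was the Calcoco1 end, 199 kb away in both knockdown libraries and 198 and 199 kb away in the control libraries. At Hoxd it was the end of Lnpk, a gene for an endoplasmic reticulum protein, 89.0 and 89.1 kb away in the knockdown libraries and 89.0 kb away in each control library.

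The high-side edges differed more between libraries. At Hoxa the next peak lay at an end of Hibadh, 379 kb away, in knockdown replicate 1 and in both control libraries. Knockdown replicate 2 alone listed a nearer peak, at chromosome 6 from 52306013 to 52306340, 45.1 kb beyond Hoxa13 and before the homeobox gene Evx1. That peak had a fold enrichment of 6.49 over the background of its own library, as the authors give it, and stood in the top 27.8% of its list. It was the nearest peak to any Hox gene in the series. At Hoxd the high-side peak was 200 and 60.6 kb away in knockdown replicates 1 and 2, and 894 and 257 kb away in control replicates 1 and 2. The peak at 60.6 kb overlapped the near end of Mtx2, a mitochondrial import gene. At Hoxb the distances were 274 and 255 kb in the knockdown libraries and 225 and 397 kb in the control libraries. At Hoxc they were 126 and 131 kb in the knockdown libraries and 203 and 130 kb in the control libraries. Gaps as long as these intervals made up 4.59% (Hoxb, knockdown replicate 2) to 17.3% (Hoxc, control replicate 1) of all gaps in the same list.

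Summed over the 4 clusters, the peak-free intervals measured 2021 and 1532 kb in knockdown replicates 1 and 2, against 2741 and 2204 kb in control replicates 1 and 2. The knockdown values lie below both control values, a mean difference of -696 kb (two-sided exact permutation test, p = 0.33). List length moves with this sum, since the lists held 13689 and 19886 peaks in the knockdown libraries and 7608 and 13672 in the control libraries. With each list cut to its 7608 strongest peaks, the sums were 2288 and 2584 kb in the knockdown libraries and 2741 and 2252 kb in the control libraries, and the difference was -60.8 kb (exact permutation test, p = 1). The groups overlap there. With the full lists, the difference was -428 kb without control replicate 1 and -452 kb without knockdown replicate 2. Seen from single genes, the median distance from a Hox gene to the nearest listed peak was 189 and 131 kb in the knockdown libraries and 203 and 189 kb in the control libraries. For all protein-coding genes that median was 4.30 and 0 kb in the knockdown libraries and 36.5 and 5.01 kb in the control libraries. Of all genes, 15.5% and 16.2% lay farther from a peak than the Hox median in the knockdown libraries, and 20.4% and 16.4% in the control libraries. The distances describe where the lists have peaks and were not tested against other genes.

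**Figure D2:**
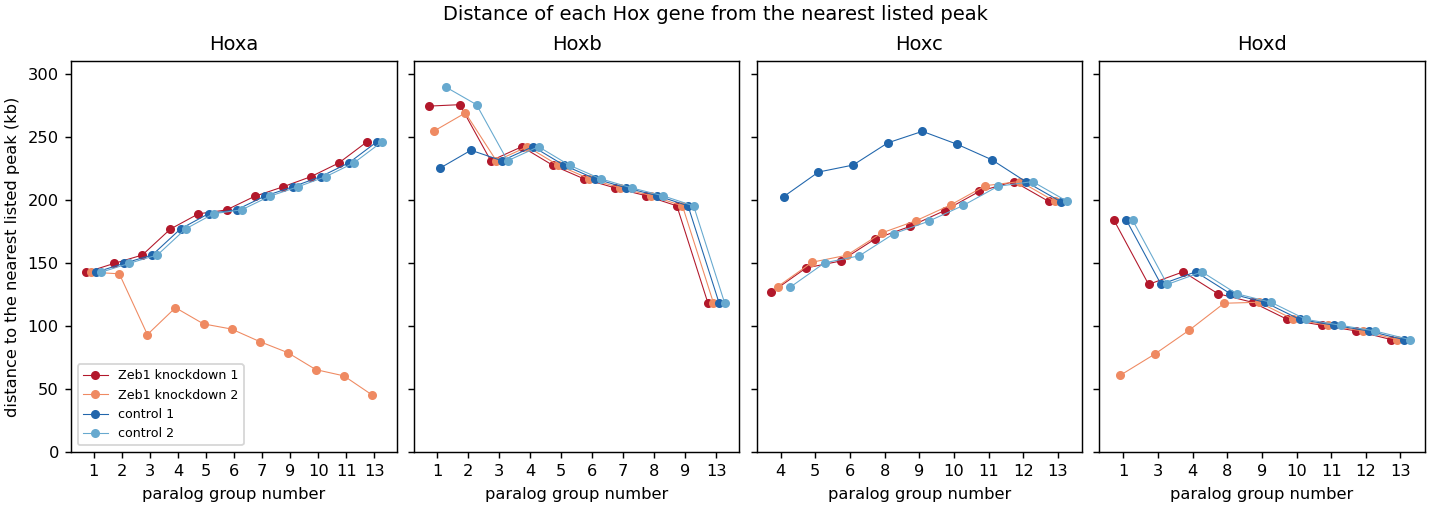
Distance in kb from each Hox gene to the nearest listed peak in each library, by cluster and by paralog group number. The smallest distance is 45.1 kb, at Hoxa13 in Zeb1 knockdown replicate 2, and this library departs from the other 3 along Hoxa and at Hoxd1 to Hoxd8, while control replicate 1 departs along Hoxc.

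Most of the genes that border the clusters held a peak in at least 1 library. Of the 24 flanking genes (the 3 nearest protein-coding genes on each side), 18 in each knockdown library and 13 and 16 in the control libraries held a peak, 12 of them in all 4. Of all protein-coding genes, 46.9% and 54.2% held a peak in the knockdown libraries, 28.2% and 46.1% in the control libraries and 25.3% in all 4. The flanking genes without a peak in any library were Evx1 and Evx2, homeobox genes beside Hoxa and Hoxd, Calcoco2 and Ttll6 beside Hoxb, and Snx10 beside Hoxa. Evx2 lies 6.71 kb from Hoxd13. Cbx5 and Hnrnpa1, beside Hoxc, lie end to end, so 1 peak can count for both. Atp5g3, 756 kb from Hoxd13, was the only one of the 24 flanking genes with a peak in both knockdown libraries and neither control. That pattern was shown by 4.31% of all protein-coding genes. Atp5g3 lost it with lists of equal length and with peaks of −log10 q 3 or more.

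The Hox clusters arose by duplication of a whole stretch of chromosome, and gene families that were copied with them still sit nearby. In a list of 21 such genes, chosen after the values were seen, 15 in each knockdown library and 13 in each control library held a peak. The shares over all protein-coding genes were 46.9% and 54.2% in knockdown and 28.2% and 46.1% in control. All of Hnrnpa1, Hnrnpa2b1 and Hnrnpa3, RNA-binding proteins of splicing, held 1 peak in each of the 4 libraries, each beside a different cluster. Of the heterochromatin proteins, Cbx3 and Cbx5 held a peak in all 4 libraries. Cbx5 lies end to end with Hnrnpa1, and Cbx3 with Hnrnpa2b1, so 1 peak can count for both genes of a pair. In control replicate 1 the peak at chromosome 15 from 103239377 to 103240484 counts for both Cbx5 and Hnrnpa1. Cbx1 held 1 peak in knockdown replicate 1 and 0 in knockdown replicate 2, against 0 in control replicate 1 and 1 in control replicate 2. The stress-response factors Nfe2l1 and Nfe2l2 held peaks in all 4 libraries, and Nfe2l3 in none.

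As a set, the Hox start windows were not poor in CG dinucleotides, though most of them belong to Hoxa and Hoxd genes. The number of CG dinucleotides goes with the presence of a peak over all genes. RefSeq start windows of 300 bases, 250 before and 50 after a transcription start, matched 22 of the 39 Hox genes, with 24 windows. They held 4 to 45 CG dinucleotides with a median of 14.5, against a median of 13 over 21045 windows of protein-coding genes. Of all 21045 starts, 49.6% had a peak within 1 kb in at least 1 library, 21.7% in all 4, and 4.07% in both knockdown libraries and no control library. Among the 9954 windows with at least the Hox median of CG, 81.4% had a peak in at least 1 library and 39.2% in all 4. Per library these CG-rich starts held a peak in 69.8% and 77.3% of cases in the knockdown libraries and 40.5% and 67.5% in the control libraries. Among the 24 Hox windows, 0 had a peak within 1 kb in any library. Not all of the 24 reach the Hox median of CG, and the shares of the CG-rich starts do not apply to those below it. The only windows of the Hoxb and Hoxc clusters are below it. Those of Hoxb8, Hoxb4, Hoxb1 and Hoxc4 held 13, 14, 10 and 9 CG. In the classes of 0 to 4 and 5 to 9 CG lie 3 and 4 Hox windows. Of all windows in these classes, 5.69% and 25.3% had a peak in at least 1 library. The 2 Hox windows with 30 CG or more belong to Hoxd13, with 37, and Hoxa13, with 45. Of all windows in that class, 85.7% had a peak in at least 1 library.

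The Hox window richest in CG, that of Hoxa13, can be set beside that of a gene that borders a cluster. Hnrnpa3 was taken because it is the flanking gene with a peak in all 4 libraries whose CG count, 44, is nearest. The window of Hoxa9 is 1 of 3 with the fewest CG, 4, and shows the range among the members. Every CG is in capitals, and the strand of the gene is read 5′ to 3′. Hoxa13 is at chr6:52260831-52261130 on the minus strand, Hnrnpa3 at chr2:75659009-75659308 on the plus strand and Hoxa9 at chr6:52227321-52227620 on the minus strand (RefSeq, GRCm38.p6).
Hoxa13: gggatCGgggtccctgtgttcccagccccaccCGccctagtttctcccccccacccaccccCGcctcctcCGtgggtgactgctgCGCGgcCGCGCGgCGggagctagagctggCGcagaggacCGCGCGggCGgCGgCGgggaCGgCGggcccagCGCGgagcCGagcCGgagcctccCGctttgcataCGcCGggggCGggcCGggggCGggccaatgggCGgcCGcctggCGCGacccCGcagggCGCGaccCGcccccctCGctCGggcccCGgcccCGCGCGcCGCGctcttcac
Hnrnpa3: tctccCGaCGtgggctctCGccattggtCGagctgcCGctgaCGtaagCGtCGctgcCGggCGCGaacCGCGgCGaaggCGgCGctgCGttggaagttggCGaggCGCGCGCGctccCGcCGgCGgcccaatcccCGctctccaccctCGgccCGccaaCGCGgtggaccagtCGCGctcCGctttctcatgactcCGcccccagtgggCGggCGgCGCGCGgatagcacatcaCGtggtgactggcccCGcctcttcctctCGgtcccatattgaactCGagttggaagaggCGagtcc
Hoxa9: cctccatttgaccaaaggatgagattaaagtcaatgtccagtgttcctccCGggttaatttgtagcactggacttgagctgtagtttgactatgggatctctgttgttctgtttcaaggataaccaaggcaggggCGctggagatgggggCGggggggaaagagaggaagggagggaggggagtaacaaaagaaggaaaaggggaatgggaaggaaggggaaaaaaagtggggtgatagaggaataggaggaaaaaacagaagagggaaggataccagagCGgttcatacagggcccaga
Hoxa13 thus had 45 CG and a GC share of 81%, with no peak in any library, and Hnrnpa3 had 44 CG and a GC share of 70.3%, with a peak in every library.

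**Figure D3:**
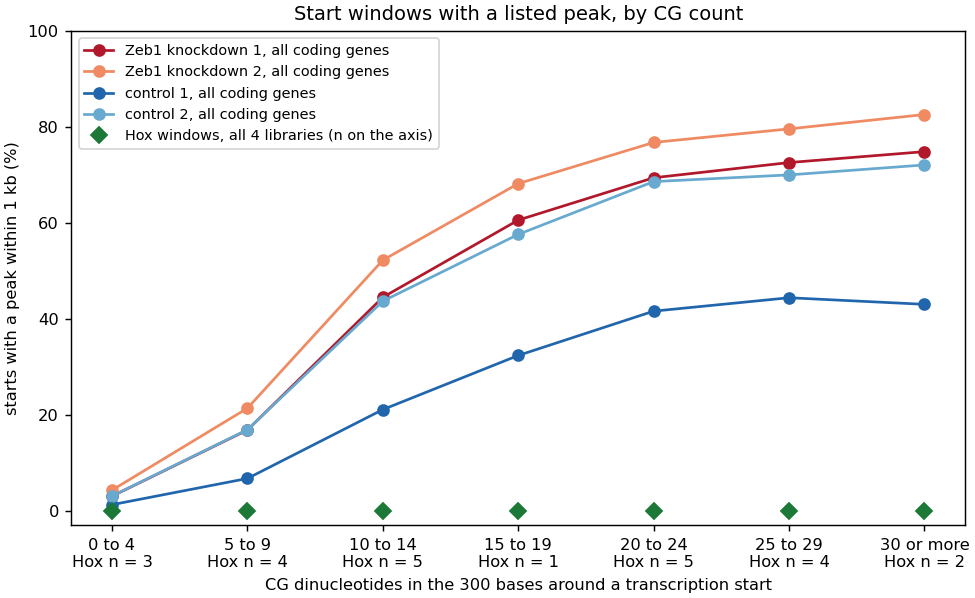
Share of transcription starts of protein-coding genes with a listed peak within 1 kb (y axis, percent) by the number of CG dinucleotides in the 300-base window (x axis), 1 line per library, with the Hox windows as green diamonds and their number under each class. The shares are higher in classes with more CG, up to the class before the last in control replicate 1, and reach 74.9% and 82.6% in the knockdown libraries and 43.1% and 72.1% in the control libraries in the last class, while the Hox windows stand at 0 in every class.

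The E2-box bound by Zeb1, CACCTG or its reverse complement CAGGTG, was in 0 of the 24 Hox windows, against 19.9% of all windows. The composite site of Hox and Pbx proteins, TGATNNAT on either strand, was in 4 Hox windows, those of Hoxd11, Hoxa2, Hoxb8 and Hoxb1, against 7.36% of all windows. The posterior Hox motif TTTATNG on either strand was in 2, those of Hoxd4 and Hoxb8, against 9.49% of all windows. Matches are letters in a window and say nothing about binding.

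Other long runs of coding genes without a peak were mostly of another kind. Between neighbouring merged peak regions, 143 intervals held 9 or more whole protein-coding genes, the number in the Hoxc interval. The 4 Hox intervals are among them, with 11 genes for Hoxa in 293 kb, 12 for Hoxb in 517 kb, 9 for Hoxc in 440 kb and 10 for Hoxd in 247 kb. Olfactory receptor genes (Olfr) lead 34 of the 143 and vomeronasal receptor genes (Vmn) lead 12, and in either family the median over its intervals of their median CG count is 1. Of the 138 intervals with start windows for at least 3 genes, 5 had a median CG count of 10 or more, a level set after the values were seen. They are those of Hoxa (median 20), Hoxb (11.5) and Hoxd (20), an interval on chromosome 14 with the Cphx and Duxbl genes (18) and 1 further interval that holds no Hox gene and has the highest median of the 5 (33). These medians rest on start windows of 9 of 11 genes at Hoxa, 4 of 12 at Hoxb and 10 of 10 at Hoxd. Those of the Cphx interval and of the interval at 33 rest on 9 of 12 and 3 of 10 genes. The Hoxc interval had a single start window, with 9 CG, and is not among the 138.

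**Figure D4:**
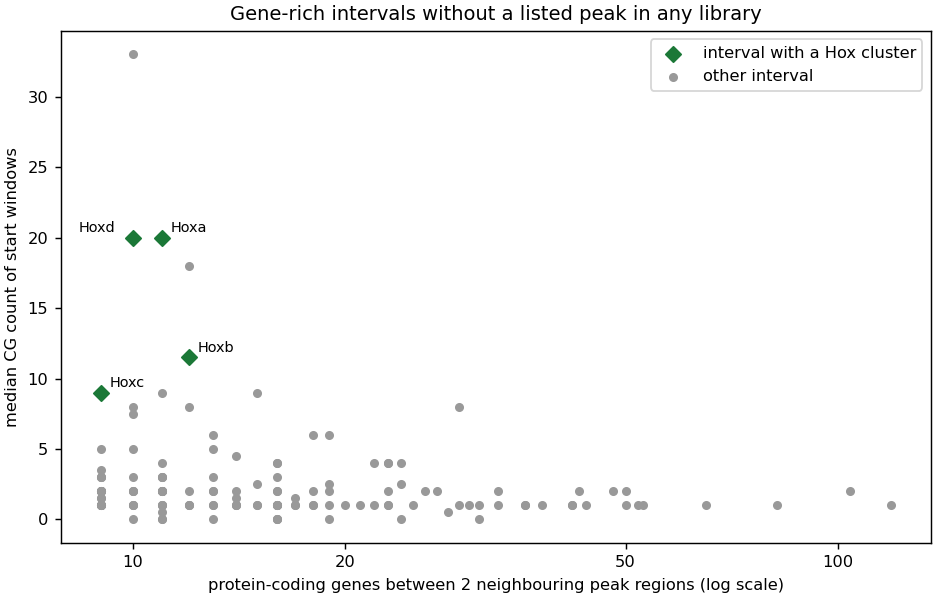
Intervals between neighbouring merged peak regions that hold 9 or more protein-coding genes and at least 1 start window: number of genes (x axis, log scale) against the median CG count of their start windows (y axis), Hox intervals as green diamonds. The intervals with the most genes have median counts near 1, Hoxa and Hoxd stand at 20, and the highest point, at 33, is an interval without Hox genes.

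Other homeobox genes were mostly without a peak too, though not entirely. Of 30 genes of other homeobox families, 5 and 7 held a peak in the knockdown libraries and 2 and 5 in the control libraries. Of them, 21 held none in any. Shares over all protein-coding genes were 46.9% and 54.2% in knockdown and 28.2% and 46.1% in control. Hhex, a homeobox gene of endothelial and blood progenitors, and Irx3 held 1 peak in each of the 4 libraries. Dlx1, a forebrain homeobox gene, held 1 peak in each knockdown library and 0 in each control library. Dlx1 was the single member of the 30 with that pattern, against 4.31% of all protein-coding genes. Dlx1 lost the pattern when each list was cut to the length of the shortest. It also lost it with peaks of −log10 q 3 or more, where Meox1 alone showed it. The Dlx1 peak in knockdown replicate 1 was weak, at 95.4% from the top of the list, against 32.9% in knockdown replicate 2. Of 16 eye and forebrain homeobox genes, 0 and 3 held a peak in the knockdown libraries and 1 and 5 in the control libraries, and 11 held none. These counts were higher in the replicate 2 libraries, as were those of 14 photoreceptor markers, with 2 and 12 holding a peak in the knockdown libraries and 2 and 12 in the control libraries. The part of photoreceptor chromatin in the homeobox counts was not tested.

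The partners of Hox proteins held peaks at several genes. Pbx, Meis and Pknox proteins are homeodomain cofactors that bind DNA together with Hox proteins. Of these 9 genes, 4 and 7 held a peak in the knockdown libraries and 3 and 5 in the control libraries. The shares over all protein-coding genes were 46.9% and 54.2% in knockdown and 28.2% and 46.1% in control. Pknox1 held 2 peaks in every library and Pbx3 held 1. Pbx4 held 1 in each knockdown library, against 0 in control replicate 1 and 1 in control replicate 2. Meis1 held 0 and 1 in the knockdown libraries and 0 and 1 in the control libraries, at different places. Meis2 and Pknox2 held 2 peaks each in knockdown replicate 2 and none elsewhere, at 90.0% or more from the top of that list. Pbx2 and Meis3 held none in any library. No cofactor had a peak in both knockdown libraries and neither control, against 4.31% of all protein-coding genes.

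Genes of the complexes that silence or maintain Hox expression held peaks in most libraries. Polycomb complexes place repressive histone marks, and of their 28 genes 26 and 27 held a peak in the knockdown libraries and 20 and 24 in the control libraries. The share of these genes held by all 4 libraries was 71.4%, against 25.3% of all protein-coding genes. Eed, Ezh2 and Suz12, the core of the methylating complex (named for their role, after the values were seen), held 1 peak in every library, as did Cbx6 and Cbx8. Ring1 held none. Cbx7 held 2 peaks in each knockdown library and Phc1 held 1, with 0 in each control library for both. Neither kept this pattern with lists of equal length, where Ezh1 alone showed it, and Phc1 lost it with peaks of −log10 q 3 or more. With such peaks Eed and Bmi1 showed it beside Cbx7. With the full lists, Cbx7 and Phc1, 2 of 28, can be read against the background of 4.31%. Trithorax and MLL complexes keep Hox genes active. Of their 16 genes, 14 and 15 held a peak in the knockdown libraries and 8 and 16 in the control libraries. None of the 16 had the knockdown-only pattern. All protein-coding genes had shares with a peak of 46.9% and 54.2% in knockdown and 28.2% and 46.1% in control. Without control replicate 2 the knockdown-only counts of these lists become 6 Polycomb and 6 trithorax genes. The only control is then control replicate 1, the shortest list. The share of all protein-coding genes in that setting is not reported here, and 4.31% is no background for it.

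Among 16 upstream regulators of Hox genes, 7 and 10 held a peak in the knockdown libraries and 4 and 6 in the control libraries. For all protein-coding genes the shares were 46.9% and 54.2% in knockdown and 28.2% and 46.1% in control. Retinoic acid switches on anterior Hox genes, and its receptor gene Rara held 4 and 7 peaks in the knockdown libraries and 1 and 7 in the control libraries. Cyp26a1, Cyp26b1 and Cyp26c1, which degrade retinoic acid, and Aldh1a2, which makes it, held none in any library. Cdx1 and Cdx4, caudal activators of posterior Hox genes, held none, and Cdx2 held 1 in knockdown replicate 2 only. Gli3, an effector of hedgehog signalling, held 2 peaks in each knockdown library and 0 in each control library. It was the single member of the 16 with that pattern, against 4.31% of all protein-coding genes. The pattern is lost too when the lists are made equally long. Egr2, which activates Hox genes in the hindbrain, held 1 peak in each of the 4 libraries.

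Genes reported as endothelial targets of Hox proteins held peaks mostly outside control replicate 1, the shortest list. All 8 held a peak in both knockdown libraries, against 1 in control replicate 1 and 7 in control replicate 2. Among all protein-coding genes, 46.9% and 54.2% did in the knockdown libraries and 28.2% and 46.1% in the control libraries. Kdr, the Vegf receptor, held 2 and 3 peaks in the knockdown libraries and 0 and 3 in the control libraries. Itgb3, the integrin beta 3 subunit, held 4 and 6 in the knockdown libraries and 0 and 1 in the control libraries. Nos3, endothelial nitric oxide synthase, held 1 in each knockdown library and 0 and 3 in the control libraries. Thbs2, an inhibitor of angiogenesis, held 1 in every library. Efna1, an ephrin ligand, held 1 and 3 in the knockdown libraries and 0 in each control library. All were weak, at 91.0% or more from the top of their lists. They lay at different places in the knockdown libraries, without overlap. Efna1 was the single member of the 8 with a peak in both knockdown libraries and neither control, against 4.31% of all protein-coding genes. Efna1 lost the pattern with lists of equal length, where Itgb3 alone showed it, and with peaks of −log10 q 3 or more, where Itga5 and Thbs2 did. Without control replicate 2 the count becomes 7 of 8, with the shortest list as the only control. The share of all protein-coding genes in that setting is not reported here, and 4.31% is no background for it.

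**Figure D5:**
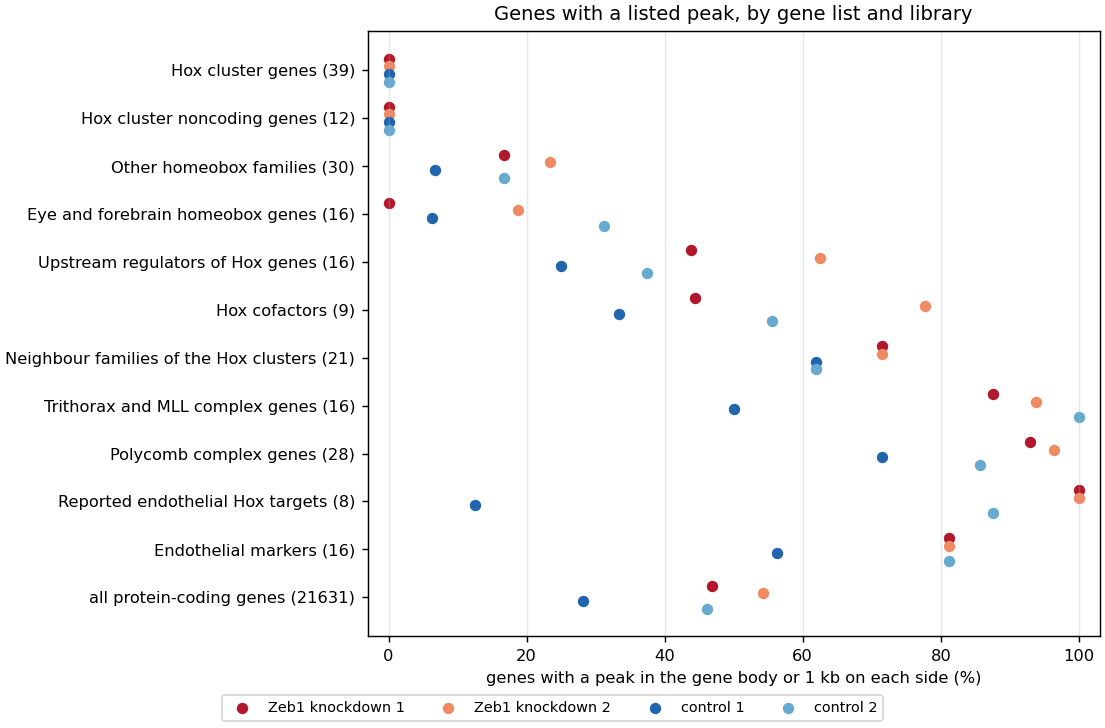
Share of genes with a listed peak in the gene body or 1 kb on each side (x axis, percent) by gene list (y axis, number of genes in parentheses), 1 point per library. Hox genes and the noncoding genes of the clusters stand at 0 in all 4 libraries, other homeobox families between 2 and 7 of 30 genes, and Polycomb genes between 20 and 27 of 28.

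The labelled cell type was checked on the same lists. The marker counts can be read against the shares of all protein-coding genes with a peak. These were 46.9% and 54.2% in the knockdown libraries and 28.2% and 46.1% in the control libraries. Of 16 endothelial markers, 13 in each knockdown library and 9 and 13 in the control libraries held a peak, among them Cdh5, Tie1, Flt1 and Cldn5 in all 4. Emcn and Sox18 held none in any library. No endothelial marker was held only by the knockdown libraries, but Erg, Esam and Clec14a were with peaks of −log10 q 3 or more. Photoreceptor markers held peaks too, 2 and 12 of 14 in the knockdown libraries and 2 and 12 in the control libraries. The part of photoreceptor chromatin in these libraries was not tested. Of 10 mural cell markers, 2 and 3 held a peak in the knockdown libraries and 0 and 1 in the control libraries, with Pdgfrb and Rgs5 at 0. Notch3 held 1 and 2 peaks in the knockdown libraries and 0 in each control library. It was the single member of the 10 with that pattern, against 4.31% of all protein-coding genes. Notch3 lost the pattern with lists of equal length and with peaks of −log10 q 3 or more. Des held 1 peak in knockdown replicate 1 alone, Cspg4 held 1 in knockdown replicate 2 alone, and Myh11 held 1 in knockdown replicate 2 and 1 in control replicate 2. Of 10 leukocyte markers, 1 and 1 held a peak in the knockdown libraries and 1 and 0 in the control libraries, with Ptprc at 0. Of 8 glial markers, 2 and 4 held a peak in the knockdown libraries and 3 and 2 in the control libraries, among them Glul and Vim in all 4. Peak lists do not show whether Zeb1 was deleted. Read depth is unknown, so a gene without a listed peak was not detectably open at these depths, which is not the same as closed.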

How the data were processed

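The authors' build was mm10 and their tools included bedtools 2.26.0, MACS2 2.1.1, Bowtie2 2.3.2, SAMtools 1.3, Picard 2.9.2 and Trimmomatic 0.36, per the submitters' processing notes. Roles, settings and any transposase shift are not given in the sources used here. The authors deposited 1 filtered broad peak list per library, not pooled. The deposited columns are fold enrichment, which is a ratio to the library's own background, then −log10 p and −log10 q, with a score equal to that −log10 q times 10, rounded down, with 1000 as its limit; 4 peaks of knockdown replicate 2 depart from this rounding. Every list ends at a q of 0.1. Fold and −log10 p or q served only to describe, rank or filter peaks within a list. Read depth is unknown.

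Peaks were overlapped with RefSeq genes and start windows in Python 3.11.15 with pandas 2.3.3. Merged regions join peaks that overlap or touch on the 19 autosomes and X. Groups were compared with exact permutation tests over the 4 libraries. Peaks planted in Hox gene bodies of each list were all recovered (104 of 104). No set test was run. The shares of all coding genes, against which list counts can be read, are given with the first result and repeated for some lists only.

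The members and lists were chosen with earlier results of these data known. All 39 members could be named, as could the 3 nearest coding genes per side, whole lists of up to 12 genes, and of longer lists the members held only by 1 group and up to 4 others in alphabetical order; other genes of longer lists named in the text were picked after their values were seen. By the rule fixed for printing promoters, those with a peak, no Hox window qualified; the 3 printed were chosen by CG count instead. Start windows of 17 Hox genes were not used here, and the values of a few genes counted in the lists are not reported here. Results were recomputed with peaks of −log10 q 3 or more, equal list lengths, other windows, a 50% overlap, other merging, each library left out, and the replicate number as a block.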

Additional observations from a re-analysis of the deposited data

How the results depend on the processing

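The 6 results on the Hox genes (genes with a peak, cluster peaks, covered length, peaks per 1000 list peaks, and genes and regions held only by the knockdown libraries) stayed at 0 in all 57 combinations with the alternatives chosen at the start, each library left out included. Most of these can only remove peaks or libraries, so that a count of 0 could not change; of the windows, only that of 10 kb on each side could have added a peak. In windows added after seeing the data, the mean number of Hox genes with a peak was 0.5 higher in knockdown with 50 kb on each side, where Hoxa13 entered in knockdown replicate 2 alone, and 5 higher with 100 kb. With 100 kb, 2 and 12 Hox genes held a peak in the knockdown libraries and 2 in each control library (Hoxd12 and Hoxd13 in all 4), and no Hox gene was held only by the knockdown libraries. With the replicate block, the difference was 0 (exact permutation, p = 1), and the smallest p it allows is 0.5. Same-numbered libraries deviated together only weakly over all regions (r = 0.0315 over 25263 regions), so the numbers are not taken to pair them. Photoreceptor marker counts nonetheless went with the number, at 2 of 14 in both replicate 1 libraries and 12 of 14 in both replicate 2 libraries. Whether same-numbered libraries share a batch was not tested. Of 92 recomputed values for the other lists, the CG-rich starts and the intervals, 63 stayed within 1.5 times (counts) or kept their direction (differences), 29 list counts moved and 0 reversed. The sum of the peak-free intervals, -696 kb, ran from -965 to -428 kb with a library left out, and was -1036 kb with peaks of −log10 q 3 or more and -60.8 kb with lists of equal length. The difference in the share of CG-rich starts with a peak, 19.5 percentage points, ran from 6.05 to 33.0 with a library left out and was 3.72 with lists of equal length. The knockdown-only share of all protein-coding genes, 4.31%, belongs to the full lists of all 4 libraries. It is no background for the counts that follow. Without knockdown replicate 1 the knockdown-only counts become 4 upstream regulators, 4 other homeobox genes and 2 cofactors, and without control replicate 2 they become 3, 2 and 1. With lists of equal length they become 0, 0 and 1, with 1 Polycomb gene (Ezh1); the construction of that alternative leaves fewer peaks in 3 libraries. The lists cannot be loosened beyond a q of 0.1, and depth is unknown, so weaker open chromatin at the clusters would not be seen.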
